A study of Homo sapiens with 14 samples.

Results

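HSD11B2 (gene ID 3291) lies on chromosome 16 at positions 67429801 to 67437553 of GRCh38 in the RefSeq gene table, and was examined as a direct progestin target. The locus was taken as this span and 50 kb to either side, positions 67379801 to 67487553 or 107.8 kb, and its members were all rows of the 4 deposited peak lists with a base in it. They numbered 48 of 230789 regions. The list for the progesterone receptor (PR) under vehicle gave 11 of its 39593 rows and the PR list under progesterone (P4) 24 of 112534. The list for POLR3A, a catalytic subunit of RNA polymerase III, gave 5 of 29968 under vehicle and 8 of 48694 under P4.

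The regions came from chromatin immunoprecipitation sequencing of T47D cells, an established breast cancer line labelled as positive for oestrogen and progesterone receptors. Cells had received ethanol, the vehicle, or P4 for 1 h, and all groups were the same line with no genetic change named. For each antibody and treatment the labels give 3 replicate libraries but the deposit gives 1 peak list, and the treatments were therefore set side by side with no test against the spread between replicates. Peak lists hold no expression values, so neither the receptor status in the label nor the RNA of HSD11B2 was measured here.

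HSD11B2 encodes 11β-hydroxysteroid dehydrogenase type 2, which oxidises active cortisol to inactive cortisone. In the kidney and other epithelia of salt balance it keeps cortisol away from the mineralocorticoid receptor, which binds cortisol and aldosterone alike. PR is a ligand-activated transcription factor of the same receptor family, and its DNA element is shared with the glucocorticoid and mineralocorticoid receptors. RNA polymerase III makes transfer RNAs, 5S ribosomal RNA and other short RNAs.

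The locus held 9 annotated genes, 6 of them protein-coding. Below HSD11B2 in coordinates were LRRC36, TPPP3 and the U1 pseudogene RNU1-123P, then ZDHHC1, a member of the palmitoyltransferase family (67394152 to 67416477), and the long non-coding RNA LOC124903702 (67415903 to 67426531). Above it were ATP6V0D1, a subunit of the vacuolar proton pump (67438019 to 67481157), its divergent transcript ATP6V0D1-DT, and AGRP, which encodes a neuropeptide of appetite control. The RefSeq span of HSD11B2 joins 1 curated and 1 predicted transcript, so its ends need not be those of the curated one. Regions inside or at the end of HSD11B2 are placed by this span, and their place relative to the curated transcript was not examined. Distances below are from the lower-coordinate end of that span, 67429801.

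RefSeq promoter sequences (GRCh38.p14, 250 bases before to 50 after the start) matched 4 of the 9 genes: ZDHHC1, ATP6V0D1, ATP6V0D1-DT and AGRP. The promoters of ATP6V0D1 and ZDHHC1 are shown because a region of a list reached each of them and the antibody differed. Both genes are on the minus strand, and the sequences read 5′ to 3′ along the gene. Capitals mark the matches to the searched letters.
ATP6V0D1, chr16:67481108-67481407: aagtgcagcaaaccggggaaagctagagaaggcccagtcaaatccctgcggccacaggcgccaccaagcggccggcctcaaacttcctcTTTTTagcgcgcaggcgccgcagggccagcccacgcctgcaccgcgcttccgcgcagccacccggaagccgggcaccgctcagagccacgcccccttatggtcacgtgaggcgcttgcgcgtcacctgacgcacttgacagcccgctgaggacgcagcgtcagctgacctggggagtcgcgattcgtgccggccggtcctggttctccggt
ZDHHC1, chr16:67416428-67416727: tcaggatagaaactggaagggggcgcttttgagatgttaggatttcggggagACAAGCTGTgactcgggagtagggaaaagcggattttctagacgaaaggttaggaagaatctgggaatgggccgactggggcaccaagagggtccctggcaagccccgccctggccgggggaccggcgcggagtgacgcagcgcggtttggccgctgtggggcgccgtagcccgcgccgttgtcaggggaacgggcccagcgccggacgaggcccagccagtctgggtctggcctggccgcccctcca

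The letters searched on both strands were ACANNNTGT, the palindromic core of the element of PR and its relatives, the same core flanked by G and C across 1 free base on either side (the long element), the half-site TGTNCT with its reverse complement AGNACA, and TTTTT with AAAAA, the run at which RNA polymerase III ends transcription. A match to the long element always holds the core, and both can overlap the half-site. The ATP6V0D1 promoter held TTTTT at bases 90 to 94 and none of the receptor letters. The ZDHHC1 promoter held the core as ACAAGCTGT at bases 53 to 61. Over all 35116 promoters of the table, 0.390% held the long element, 5.37% the core, 41.4% the half-site and 39.2% the run of 5. The whole ATP6V0D1 promoter, 300 bases, lay in a PR region of the P4 list. A POLR3A region of the vehicle list reached 5 bases of the ZDHHC1 promoter, and neither promoter was reached by a region of any other list. Of the promoters not shown, ATP6V0D1-DT lay whole in the same PR region of the P4 list and held AAAAA at bases 171 to 175. AGRP held the half-site AGAACA at bases 102 to 107 and was reached by no region. HSD11B2 had no promoter in the set, and the letters of its PR regions were not searched.

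**Figure D1:**
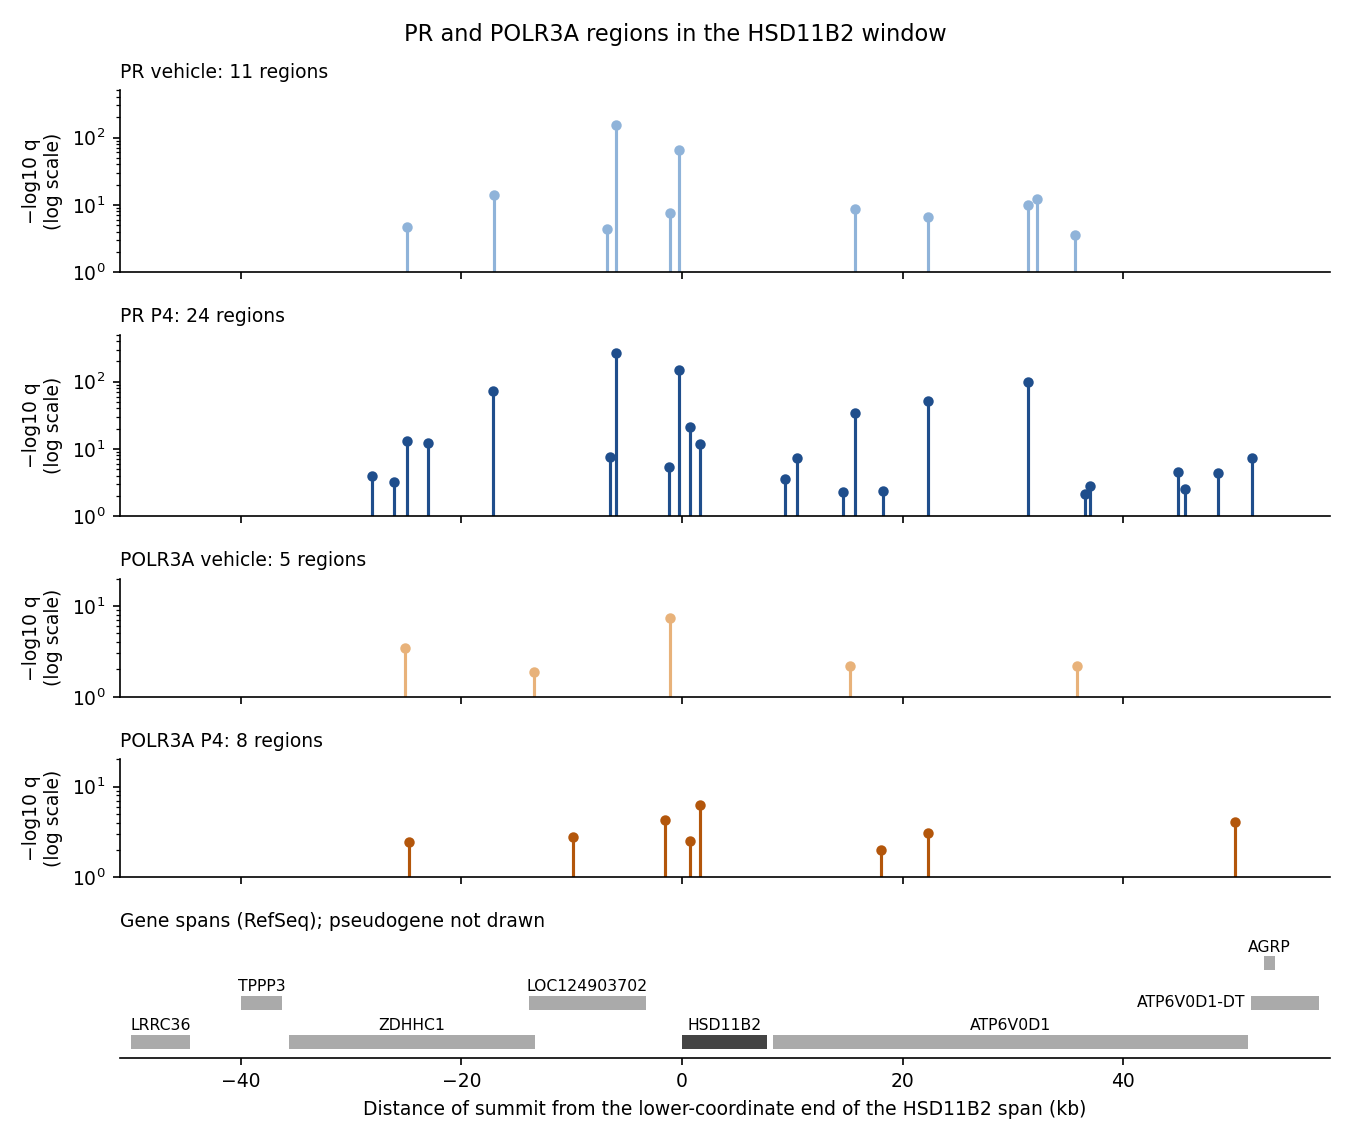
Summits of all 48 regions of the HSD11B2 locus, with distance from the lower-coordinate end of the gene span in kb on the x axis and the authors' −log10 q on a log y axis, 1 panel per list and RefSeq gene spans at the bottom. The highest points of both PR panels stand 6 kb below the HSD11B2 span and at its lower end, and all POLR3A points are below 10.

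The strongest PR region of the locus lay below the HSD11B2 span in coordinates, within LOC124903702, under both treatments. Its strength is given by 2 of the authors' own values, the fold enrichment over background and the −log10 of the q-value, a p-value adjusted over the list. Under vehicle the region spanned 67423649 to 67424020 with its summit 5962 bp from HSD11B2, a fold of 29.1 and a −log10 q of 154.8. Under P4 it spanned 67423623 to 67424015 with its summit 5982 bp away, a fold of 41.3 and a −log10 q of 262.2. The summits of both treatments were 20 bp apart. Under both treatments it had the highest fold and −log10 q of the locus.

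The second strongest PR region sat at the lower end of the HSD11B2 span. Under vehicle it covered 67429037 to 67429703, ended before the span, and had a fold of 14.3 and a −log10 q of 66.2. Under P4 it covered 67429196 to 67429993, reached into the span, and had a fold of 22.9 and a −log10 q of 148.7. The summits lay 278 and 265 bp from the span's end, 13 bp apart. A weaker PR region, 1.1 kb from the span, was in both lists, at 7.62 under vehicle and 5.33 under P4 by −log10 q.

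Inside the HSD11B2 span, PR regions with a summit occurred in the P4 list alone. The first, 67430274 to 67430691, had its summit 722 bp into the span, a fold of 7.69 and a −log10 q of 20.9. The second, 67431312 to 67431604, had its summit 1661 bp into the span, a fold of 5.78 and a −log10 q of 12.0. Beyond position 67431899 no region of any list overlapped the rest of the span. PR regions of the P4 list were absent over 7.45 kb from their last region in the span into ATP6V0D1.

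**Figure D2:**
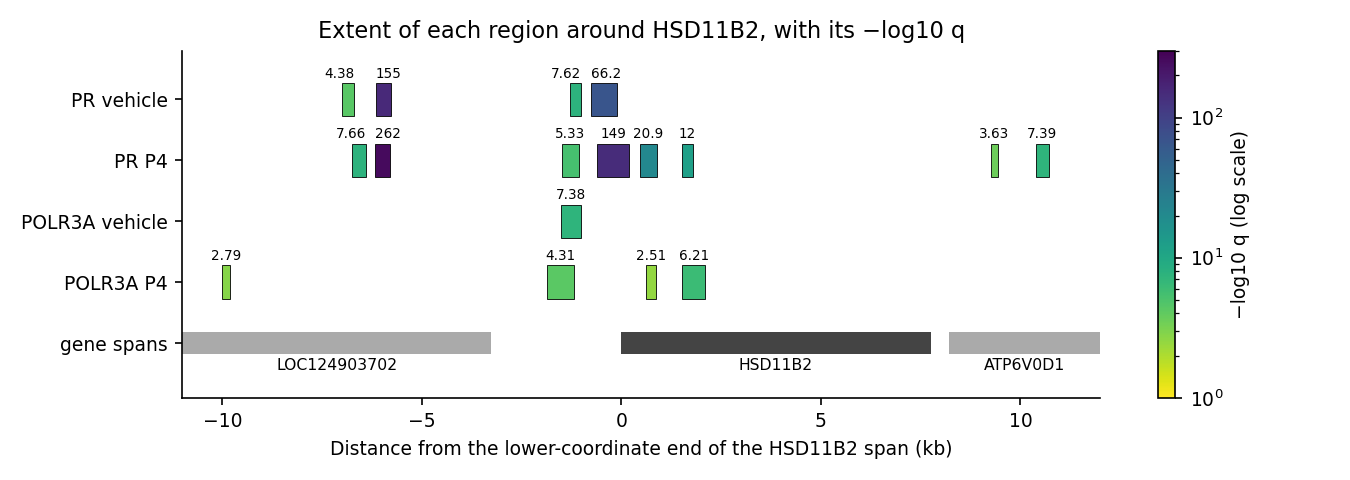
Extent of the regions within about 10 kb of HSD11B2 in each list, against distance from the lower-coordinate end of its span in kb, coloured and labelled by −log10 q (log colour scale). PR regions at 6 kb and at the end of the span were in both treatments, and the regions within the span were in the P4 lists of both antibodies.

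Towards lower coordinates, PR regions lay within ZDHHC1. The region whose summit was 17.1 kb from HSD11B2 had a −log10 q of 14.1 and a fold of 5.86 under vehicle, and of 71.5 and 14.6 under P4, with summits 5 bp apart, the smallest distance of any pair of the locus. Another, at 24.9 kb, had 4.71 under vehicle and 13.3 under P4 and was 318 bp wide under vehicle and 1104 bp under P4. A region of the P4 list at 23.1 kb, with 12.2, had no vehicle counterpart. Next to the strongest region, a pair with summits 315 bp apart had 4.38 under vehicle and 7.66 under P4. Below ZDHHC1's PR regions the P4 list was empty for 21.8 kb, a stretch that holds LRRC36 within the locus and TPPP3, and no region of the other 3 lists lay there.

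Towards higher coordinates, PR summits lay within ATP6V0D1, 5 under vehicle and 12 under P4, and the last one of the P4 list in ATP6V0D1-DT. The strongest spanned 67460871 to 67462333 under P4, with a fold of 20.4 and a −log10 q of 100.5, and covered 2 vehicle regions with −log10 q of 9.90 and 12.3. The PR region 22.3 kb from the HSD11B2 end stood at 6.66 in the vehicle list and 51.1 in the P4 list by −log10 q. The one at 15.7 kb stood at 8.61 and 33.7. The P4 region over the shared start of ATP6V0D1 and ATP6V0D1-DT, 67480508 to 67482189, was the widest of the locus at 1682 bp and had a −log10 q of 7.24.

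Most vehicle PR regions had a counterpart under P4, and most P4 regions had none under vehicle. In the vehicle list 10 of 11 had a P4 counterpart, against 75.7% of the whole vehicle list. In the P4 list 9 of 24 had a vehicle counterpart, or 37.5%, against 25.8% of the whole P4 list. The single vehicle region without a counterpart, at 67465318 to 67465521 in ATP6V0D1, was the weakest of its list in the locus with a −log10 q of 3.57. The median distance between paired summits was 28.5 bp over the 10 pairs and 31 bp over the 29828 pairs of the whole lists.

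The 15 P4 regions without a vehicle counterpart were mostly weak. Their median −log10 q was 3.92, against 51.1 for the 9 shared regions, and the whole P4 list gave 3.98 and 23.6. Of the 15, 3 reached a −log10 q of 10: both regions within the HSD11B2 span and the one in ZDHHC1 at 23.1 kb. Over the whole P4 list 27.4% did. The share among that list's regions without a vehicle counterpart was not computed, so the count of 3 is not read as particular to the locus. The difference in count was smaller with lists of equal length, and its cause was not tested. With both PR lists reduced to the same length by −log10 q, the locus held 11 regions under vehicle and 12 under P4. Sequencing depth is unknown, and its part in the longer P4 list was not tested.

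Ordered from the strongest, the PR regions of the locus stood between 0.917% and 91.4% of the P4 list and between 2.00% and 72.8% of the vehicle list. By −log10 q the strongest region was number 778 of 38933 under vehicle and number 1023 of 111515 under P4 on chromosomes 1 to 22 and X. Among the P4 regions, 1 was in the top 1% of the list, 3 in the top 5% and 5 in the top 10%. Among the vehicle regions the top 5% held 1 and the top 10% held 2. A −log10 q of at least 10 was reached by 4 of 11 vehicle regions, against 32.2% of that list, and by 10 of 24 P4 regions, against 27.4%. Median −log10 q was 8.61 and 7.32 in the locus and 5.75 and 4.87 in the lists. Ranks from lists of different length do not show a change.

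**Figure D3:**
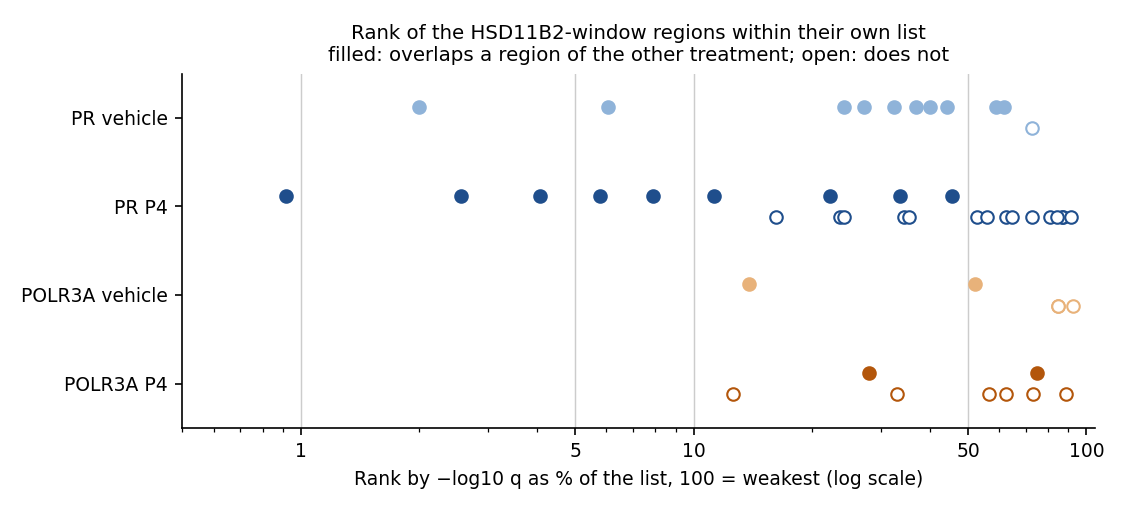
Rank of each region of the HSD11B2 locus within its own list by −log10 q, as a percent of the list on a log axis where low values are the strongest, with filled points for regions that overlap one of the other treatment and open points for the rest. The PR points reach 0.917% under P4 and 2.00% under vehicle, and the POLR3A points begin at 12.6% and 13.9%.

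Most POLR3A regions at the locus stood below the median −log10 q of their own list, with 1 of 5 above it under vehicle and 3 of 8 under P4. Under vehicle the strongest, 67428279 to 67428800, had its summit 1048 bp from the HSD11B2 span, a fold of 5.05 and a −log10 q of 7.38, and ranked 4047 of 29161. The other 4 vehicle regions had a −log10 q of 3.48 at 25.1 kb in ZDHHC1, 1.87 at 13.4 kb where ZDHHC1 and LOC124903702 overlap, and 2.21 and 2.18 in ATP6V0D1. None of the 5 reached a −log10 q of 10, against 8.78% of that list. Median −log10 q was 2.21 in the locus and 3.53 in the list.

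Under P4 the strongest POLR3A region lay inside the HSD11B2 span, at 67431324 to 67431899. Its summit was 1638 bp into the span, with a fold of 4.64 and a −log10 q of 6.21. It ranked 6035 of 47904. The region 1.5 kb below the span had 4.31. A further region within the span, 67430422 to 67430659, had 2.51. The other 5 were one in ZDHHC1 (2.44), one in LOC124903702 (2.79) and 3 in ATP6V0D1 (2.00, 3.07 and 4.05). None of the 8 reached a −log10 q of 10, against 5.40% of that list, and the median was 2.93 against 3.22.

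The 2 POLR3A lists shared 2 places, the one in ZDHHC1 near 25 kb and the one 1 kb below HSD11B2. These were 2 of 5 vehicle regions, against 42.0% of that list, and 2 of 8 P4 regions, against 25.8%. Their summits were 306 and 452 bp apart, and the median over the whole lists was 82 bp. At a reciprocal overlap of at least 50%, 1 of the 8 P4 regions counted as shared. No tRNA gene lay in the locus. The nearest on chromosome 16, TRG-GCC3-1, was 3341 kb away and had POLR3A regions at 61.4 under vehicle and 59.4 under P4 by the same score.

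PR and POLR3A regions coincided at some places of the locus. Under vehicle, 4 of 11 PR regions overlapped POLR3A, against 24.2% of the PR list, and 4 of 5 POLR3A regions overlapped PR, against 32.3% of the POLR3A list. Under P4, 6 of 24 PR regions overlapped POLR3A, against 20.9%, and 6 of 8 POLR3A regions overlapped PR, against 50.5%. Of the regions inside the HSD11B2 span, both P4 POLR3A regions overlapped the P4 PR regions, with summits 35 and 23 bp apart. Over the 6 pairs of PR and POLR3A regions of the locus under P4 the median was 94.5 bp, with a range of 14 to 332 bp. The whole lists gave 120 bp. Under vehicle the median was 172 bp over 4 pairs, and 88 bp over the whole lists. Merging overlapping regions of all lists gave 28 places, of which 2 were in all 4 lists, the one in ZDHHC1 near 25 kb and the one 1 kb below HSD11B2.

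No POLR3A region overlapped the strongest PR region at 6 kb, the one at the lower end of HSD11B2, or those at 17.1 kb and over 67460871 to 67462333, under either treatment. In the whole P4 list, 69.7% of the PR regions in the top 1%, where the region at 6 kb stood, overlapped POLR3A. The share was 32.7% from 1% to 5%, which held the regions at the end of HSD11B2 and over 67460871 to 67462333, and 22.3% from 5% to 10%, which held the one at 17.1 kb. In the vehicle list the region at 6 kb was ranked from 1% to 5%, where 25.8% overlapped POLR3A, the one at the end of HSD11B2 from 5% to 10%, where 23.4% did, and the others from 10% to 50%, where 24.5% did. The PR region at 22.3 kb, number 5 of the locus by −log10 q under P4 and also ranked from 5% to 10%, did overlap POLR3A in the P4 list, with summits 14 bp apart. At a reciprocal overlap of at least 50%, the regions of both antibodies shared under P4 numbered 1 and under vehicle 2. At a −log10 q of at least 5 in both lists they numbered 1 under each treatment.

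The locus was then set beside the same window of every protein-coding gene. HSD11B2 had 10.2 PR regions per 100 kb under vehicle, a density that 3.86% of 19821 genes had or exceeded, where the median gene had 1.51. Under P4 it had 22.3 per 100 kb, reached by 7.45% of genes, with a median of 5.28. For POLR3A the density was 4.64 under vehicle and 7.42 under P4, reached by 17.8% and 17.6% of genes, with medians of 0.971 and 1.72. By the highest −log10 q in the window, 6.22% of genes reached HSD11B2 for PR under vehicle and 8.52% under P4, against 18.3% and 24.5% for POLR3A. Windows of neighbouring genes overlap, so the same regions enter several of them.

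**Figure D4:**
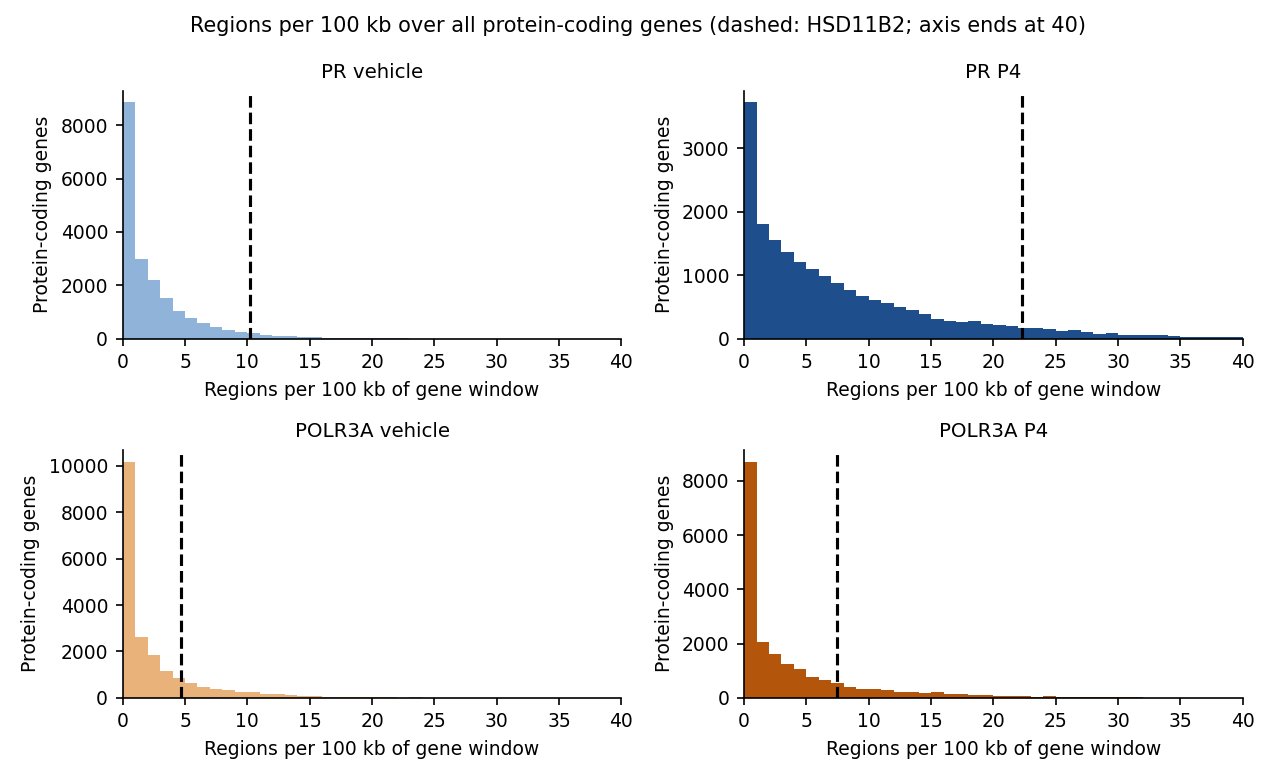
Number of protein-coding genes (y axis) by regions per 100 kb of the gene's span and 50 kb of flank (x axis, ending at 40), 1 panel per list, with HSD11B2 as a dashed line. HSD11B2 lies in the upper tail of both PR panels, at 10.2 and 22.3 regions per 100 kb, and nearer the bulk of genes in both POLR3A panels.

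Many regions of the locus also lie in the windows of its neighbours, though not all in each of them. The strongest PR region also fell within 50 kb of LRRC36, TPPP3, ZDHHC1 and ATP6V0D1, and its P4 summit was 7342 bp from ZDHHC1 and 5982 bp from HSD11B2. Under P4 the window of ATP6V0D1 held 36 PR regions, or 25.2 per 100 kb, and that of ZDHHC1 21, or 17.2. AGRP had 24.8 per 100 kb, TPPP3 14.5 and LRRC36 13.3, against 22.3 for HSD11B2. Just outside the locus, the next PR region of the P4 list was 643 bp above it with a −log10 q of 1.38, and the next one below it was 21965 bp away with 3.96.

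Of 3 other progestin targets set beside it, all had longer windows and stronger top regions. FKBP5, a cochaperone of steroid receptors, had a highest PR −log10 q of 489.4 under vehicle and ranked 6 in the P4 list. GREB1, a hormone-induced growth regulator, ranked 224, and ZBTB16, a zinc finger transcription factor, ranked 3, against 1023 for HSD11B2. Per 100 kb, however, the P4 list gave 22.3 regions at HSD11B2, 19.6 at FKBP5, 22.7 at GREB1 and 16.8 at ZBTB16. The share of P4 regions with a vehicle counterpart was 37.5%, 36.0%, 37.3% and 34.0%. The HSD11B2 span is 7753 bp, whereas the other 3 genes have longer spans, with windows of 254994 to 297060 bp at the same flanks. The strongest region was inside the gene span at FKBP5, GREB1 and ZBTB16 and outside it at HSD11B2. These differences were not tested.

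The other genes of corticosteroid action were described over the same window. Of 32 genes, HSD11B2 included, 30 had a PR region under vehicle, against 74.6% of all protein-coding genes, and 32 under P4, against 90.5%. A PR region with a −log10 q of at least 10 was near 17 of them under vehicle, against 45.5% of all genes, and near 30 under P4, against 74.6%. POLR3A was near 17 under vehicle, against 68.7%, and near 23 under P4, against 71.9%. A POLR3A region with a −log10 q of at least 10 was near 5 and 3 of them, against 9.92% and 8.84%. The median of PR regions per 100 kb under P4 was 4.66 over these genes and 5.28 over all genes.

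Among the receptors, NR3C2, which encodes the mineralocorticoid receptor, had a highest PR −log10 q of 134.5 under vehicle and of 178.8 under P4, the latter inside the gene. Its window held 4 P4 regions, or 0.857 per 100 kb. NR3C1, the glucocorticoid receptor gene, had a highest value of 8.71 under vehicle and 21.3 under P4. Of the enzymes that interconvert cortisol and cortisone, HSD11B1, which runs the reverse reaction of HSD11B2 and restores cortisol, had 5.16 and 14.7, with 10 P4 regions in its window. H6PD, which supplies the cofactor of HSD11B1, had 8.73 and 54.3. HSD11B2 thus had the highest value and the most regions of these 3 enzyme genes in each PR list.

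Among the 18 listed genes of steroid synthesis and metabolism, HSD17B2 stood highest. It encodes an oxidative dehydrogenase that inactivates oestradiol and testosterone, and its PR values were 242.8 under vehicle and 362.7 under P4, with 20 and 37 regions. HSD17B1, the reductive enzyme that forms oestradiol, had 19.8 and 158.3, with 27 P4 regions. The steroid 5α-reductase genes SRD5A1 and SRD5A2 had 162.2 and 142.8 under P4. AKR1C1, AKR1C2 and AKR1C3, whose enzymes reduce progesterone and other ketosteroids, are neighbours that share regions and had between 13.4 and 14.6. AKR1D1, the 5β-reductase gene, had 142.8, and SRD5A3, a further member of the 5α-reductase family, had 84.9. Of the genes of steroid synthesis, CYP11A1, whose enzyme cleaves the cholesterol side chain, had 34.7 under P4, CYP17A1 had 40.8 and CYP21A2 had 12.8. CYP11B2, the aldosterone synthase gene, had 10.5, and CYP11B1, whose enzyme makes cortisol, had 3.41. HSD3B1 and HSD3B2, whose enzymes form progesterone, had 17.6 and 5.25. STS, the steroid sulfatase gene, had 11.4 and SULT2A1, which encodes a steroid sulfotransferase, had 19.3.

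The group of sodium transport downstream of the mineralocorticoid receptor held 9 examined genes, among them a potassium channel gene and a corticosteroid-induced regulator. All 9 had a PR region in their window under each treatment, against 74.6% of all protein-coding genes under vehicle and 90.5% under P4. ATP1B1, a subunit of the sodium pump, had a highest −log10 q of 339.9 in the vehicle list and 427.6 in the P4 list. NEDD4L, a ubiquitin ligase that removes the sodium channel ENaC from the membrane, had 291.2 under P4, and SCNN1B, an ENaC subunit, had 239.9. SGK1, a kinase induced by corticosteroids, had 20.5 with 2 P4 regions. The ENaC subunit genes SCNN1A and SCNN1G had 87.2 and 53.1 under P4. TSC22D3, a corticosteroid-induced regulator, had 75.0, the scaffold gene CNKSR3 had 18.6, and KCNJ1, a renal potassium channel gene, had 54.8. Of the other 31 genes, 3 had a higher top value than HSD11B2 in the P4 list (HSD17B2, NEDD4L and ATP1B1). More regions per 100 kb were found near 3 of them, HSD17B1, HSD17B2 and SULT2A1. The windows of HSD17B2, NEDD4L and ATP1B1 were 163282, 457315 and 126030 bp, against 107753 bp for HSD11B2. Whether window length plays a part in the top value was not tested.

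**Figure D5:**
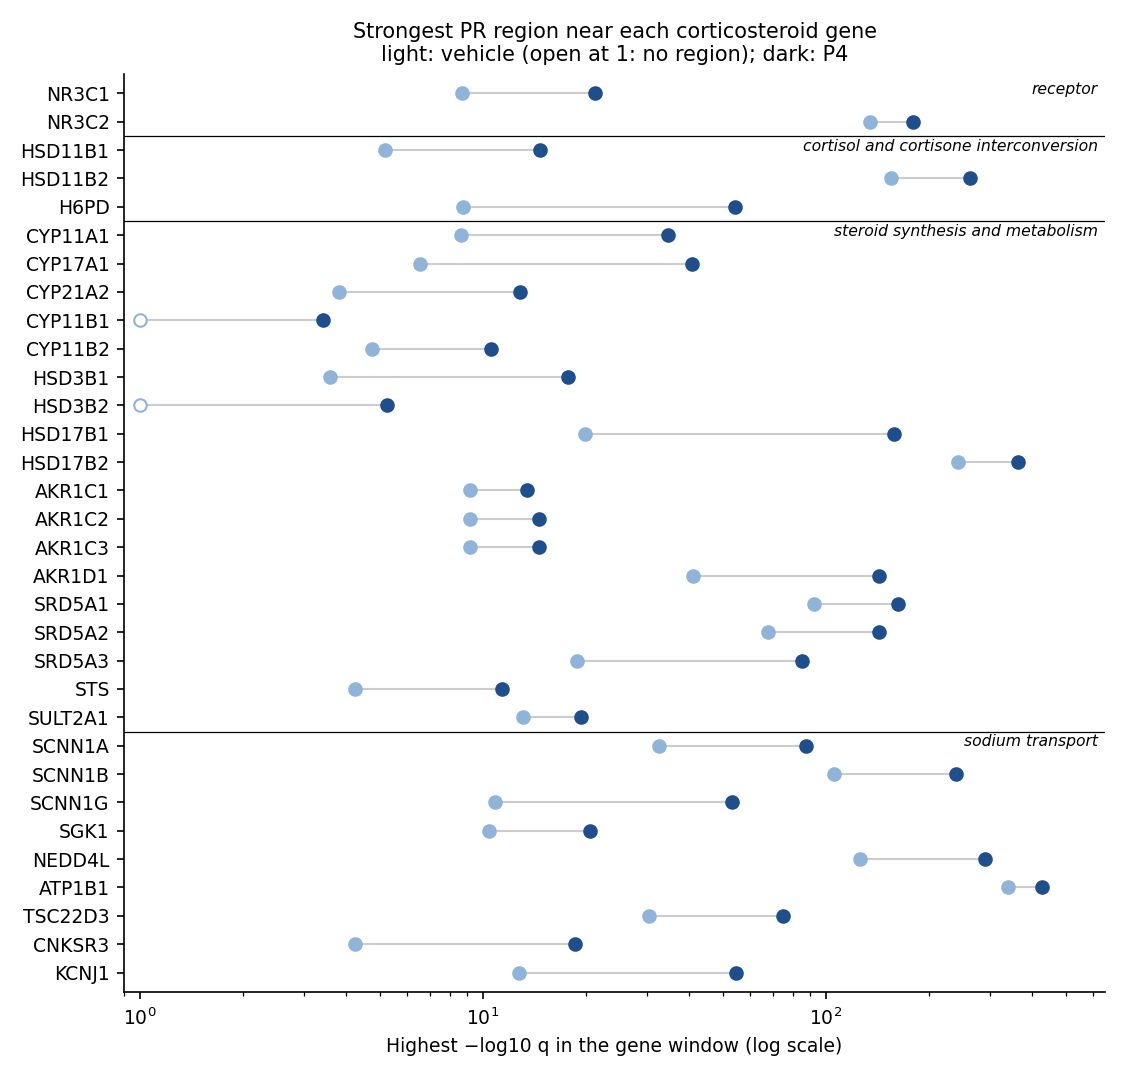
Highest PR −log10 q within 50 kb of the gene (log x axis) for the 32 corticosteroid genes grouped by role, light points for vehicle and dark points for P4, joined by a line that is no test of change. HSD11B2 stands at 154.8 and 262.2, below ATP1B1, HSD17B2 and NEDD4L under P4, and open points mark the 2 genes with no vehicle region.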

How the data were processed

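The data were 4 narrowPeak lists, 1 for each antibody and treatment, and no value per replicate was used. The submitters' processing notes name cutadapt, Bowtie2, MACS2 and the build hg38. Which control was used and how replicates were combined is not given in the sources used here. Each row of the deposited lists holds a region, a summit offset, a whole-number score, a fold enrichment (a ratio), a −log10 p-value and a −log10 q-value, all made by the authors. No row had a q-value above 0.0497. Fold and −log10 q describe or order regions of their own list. Values of vehicle and P4 are printed side by side, with no test of change between lists. The lists hold no read counts, so depth is unknown.

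Positions are 1-based. Ranks and shares were computed over chromosomes 1 to 22 and X with Python 3.11.15 and pandas 2.3.3, and regions counted as shared from 1 bp of overlap. For each chromosome, genes of the GRCh38.p14 table were kept up to where start positions first fell back, which left 19821 protein-coding genes. Overlaps were checked on simulated data and equalled those of bedtools 2.31.1 in 2 comparisons. The text names HSD11B2, every gene in its window, the listed corticosteroid genes and 3 other progestin targets. Of the corticosteroid list, 1 gene is not reported here. Regions named singly include those near HSD11B2, those of the shortest list and the 10 strongest of longer lists, some without coordinates or fold. The window and the lists were chosen with earlier results of these data known. Alternatives were stricter −log10 q, equal list length, other windows, other overlap rules and rank by fold.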

Additional observations from a re-analysis of the deposited data

How the results depend on the processing

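Of 56 values under alternative settings, 18 stayed within 1.5 times a count or within the 95% Wilson interval of a share or rank, and 38 moved. The interval served only as a yardstick for naming a value moved. Regions and overlapping gene windows are not independent samples, so it measures no spread. From a −log10 q of 10 upwards, the locus held 4 PR regions under vehicle, 10 under P4 and 0 POLR3A regions under either treatment. From 5 upwards, it held 14 PR regions under P4 and 1 POLR3A region under each treatment. With the longer list of either antibody reduced to the length of the shorter, 12 PR and 4 POLR3A regions of the P4 lists remained. With 10 kb on each side the counts were 5, 10, 2 and 4 for PR under vehicle and P4 and POLR3A under vehicle and P4, and with 100 kb they were 40 for PR and 17 for POLR3A under P4. The 9 PR regions of the P4 list shared with vehicle became 7 to 8 under 4 alternatives. The 2 shared POLR3A regions became 1 at a reciprocal overlap of 50% or equal length, and 0 at a −log10 q of at least 5 or with summits within 200 bp. PR regions shared with POLR3A fell to 2 under vehicle and 1 under P4 at a reciprocal overlap of 50%, and to 1 and 1 at a −log10 q of at least 5. Ranked by fold, the strongest regions stood at 635 and 692 in the PR lists and at 1852 and 2290 in the POLR3A lists.

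By number of regions, 7.41%, 13.0%, 24.6% and 24.2% of genes equalled or exceeded HSD11B2 in the PR vehicle, PR P4, POLR3A vehicle and POLR3A P4 lists. By regions per 100 kb the shares were 3.86%, 7.45%, 17.8% and 17.6%. By the highest −log10 q they were 6.22%, 8.52% and 18.3% in the first 3 lists. At a −log10 q of at least 5 they were 3.22%, 6.77%, 35.3% and 34.7%. The cause of these shifts was not tested. No paired analysis was possible because each group has 1 list and the lists carry no replicate number. For the same reason leaving out a replicate was not run. Depth is unknown, so list length and q-values could not be adjusted for it.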
